A study of Mus musculus with 6 samples.

Results

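These results cover the genes whose level in mouse embryonic fibroblasts (MEF) lay apart from both induced cells (CiLC) and testis Leydig cells (LC), in the same direction. Genes were selected by their values: a gene was kept if both MEF libraries lay below all 4 CiLC and LC libraries, or above all of them, on the log2 scale of CPM, read counts scaled to library size. Of 14581 genes with enough reads to be tested, 3098 (21.2%) had MEF lowest and 3252 (22.3%) had MEF highest, 6350 genes in all (43.5%). RNA sequencing had measured gene expression in 6 libraries of cultured cells of KM mice, 2 for each group. MEF came from embryos of 12.5 or 13.5 days and had been grown for 3 to 5 passages. CiLC were such fibroblasts given small molecules, not named in the labels, from 24 h after they were seeded. LC came out of testis tissue and had been through 0 to 1 passages, so LC differed from the other cells in tissue of origin and passage as well as in cell type. The labels give no age for the testis donors, no medium and no genetic change for any group. The series was made to set CiLC beside LC over all genes, and the genes described here are those in which both lay on the same side of the fibroblasts, with the size of each difference.

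Leydig cells lie between the tubules of the testis and make androgens. Cholesterol is carried into their mitochondria by the protein of Star, cut to pregnenolone by the enzyme of Cyp11a1 and oxidised to progesterone by that of Hsd3b1, and the nuclear receptor Nr5a1 and the zinc finger factor Gata4 switch such genes on. Embryonic fibroblasts are stromal cells that make collagen, elastin and actin stress fibres, and cultures made from embryos can also hold cells on the way to cartilage, smooth muscle, nerve, pericytes (the contractile cells around small vessels) and macrophages.

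Each library held 18.4 to 18.9 M estimated reads. The labelled Leydig cells carried the early steroid genes, with Cyp11a1 at 718 and 693 CPM, but not all defining markers: Cyp17a1, which makes androgen precursors, had 0 and 1 reads in LC, and Lhcgr, the receptor for luteinizing hormone, had 3 and 2. Macrophage genes were present in every library. The summed level of the 24 genes of the macrophage list was 12156 and 12402 CPM in MEF, 15099.6 and 15321 in CiLC and 7003 and 6591 in LC. The higher sum in CiLC than in MEF rested on Lyz2, as given below. In such bulk libraries fewer cells of a type and less RNA per cell cannot be told apart. Nothing in the labels shows that paired libraries were grown or collected apart, and p-values therefore reflect how far these libraries differed, which may be technical only.

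The shared differences were many, and most were small. Of the 3098 genes with MEF lowest, 1629 differed by less than 1.5-fold between MEF and the mean of CiLC and LC, 489 by 1.5 to 2-fold, 980 (6.72% of the genes tested) by at least 2-fold and 142 by at least 16-fold. Of the 3252 genes with MEF highest, 1595 differed by less than 1.5-fold, 666 by 1.5 to 2-fold, 991 (6.80%) by at least 2-fold and 107 by at least 16-fold. In edgeR's quasi-likelihood fit of all 6 libraries, the contrast of the mean of CiLC and LC with MEF called 9124 genes at an adjusted p of 0.05 (62.6%), 4610 higher (31.6%) and 4514 lower (31.0%). The kept genes were selected on these values, so their differences from MEF, in CiLC and LC together or singly, are a description. Among them 4300 (67.7%) were called against MEF in CiLC and in LC taken singly, 2018 higher and 2282 lower, nearly all of the 4318 genes tested (29.6%) that were called in both in one direction. Singly, 51.6% of all genes tested were called for CiLC and 70.7% for LC. These comparisons share the MEF libraries.

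At the edge of the rule MEF and the nearest other library were almost level. Oga, which removes sugar marks from proteins, was just inside, at 132 and 134 CPM in MEF, 140.2 and 136 in CiLC and 134 and 137 in LC. Dnajc8, a chaperone gene, was just inside on the other side, at 62.1 and 62.6 CPM in MEF, 55.9 and 62.1 in CiLC and 59 and 60.6 in LC. Ncbp1, of the cap-binding complex, was just outside, at 52.7 and 53.2 CPM in MEF, 52.4 and 52.7 in CiLC and 51 and 51.9 in LC. A tie kept Gm14569 out, since it had 0 reads in both MEF libraries and in CiLC replicate 1, although LC had 61.0 and 63.5 CPM. The account below turns to the 1971 kept genes that differed at least 2-fold between MEF and the mean of CiLC and LC (13.5% of the genes tested). This limit is on the mean of both log2 differences, so CiLC or LC alone may lie close to MEF. In Ankrd1, for instance, LC was only 1.07-fold below MEF.

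How far CiLC went towards LC was measured by setting CiLC against LC, with no MEF library. The rule had used the same CiLC and LC libraries to keep genes, so for the kept genes these calls and their p-values are not independent of the selection and are given as a description. Some genes, such as Cfb, Mmp9, Mme, Col23a1, Myh11 and Ankrd1, are named below because this difference was among the largest. The p-value of that difference adds nothing to their rank. Over all genes tested, edgeR called 70.6% as different between CiLC and LC. Of the 1971 genes, 1424 (72.2%) were called with CiLC short of LC, that is between MEF and LC, 243 (12.3%) with CiLC beyond LC, and 304 (15.4%) were not called. Among the 980 higher genes, 765 fell short (78.1%), 123 went beyond (12.6%) and 92 were not called (9.39%). Among the 991 lower genes, 659 fell short (66.5%), 120 went beyond (12.1%) and 212 were not called (21.4%). With any 1 library left out, 403 to 488 genes were not called, the most without CiLC replicate 2. With an assumed coefficient of biological variation of 0.4, in place of the fitted 3.16%, 732 were short, 80 beyond and 1159 not called, so the calls rest on the small spread of these pairs of libraries.

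**Figure D1:**
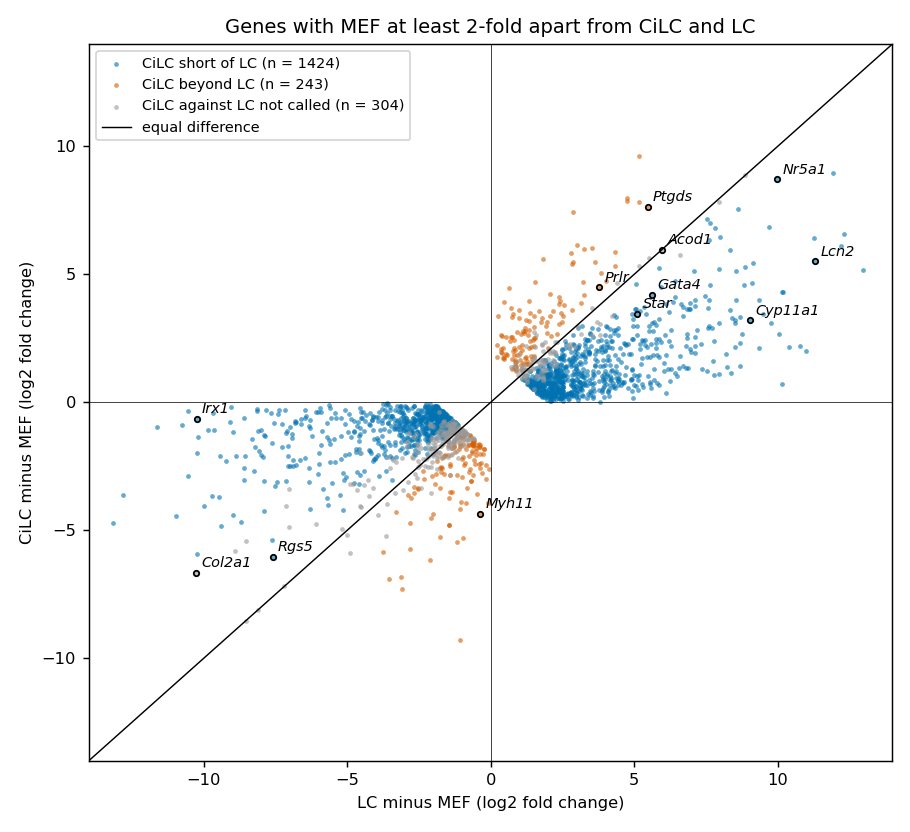
Log2 fold change of LC against MEF (horizontal axis) and of CiLC against MEF (vertical axis) for the 1971 kept genes. MEF differed at least 2-fold from the mean of CiLC and LC in these genes, not always from each. Each point is a gene, coloured by edgeR's test of CiLC against LC, the line marks equal differences and the axes share the MEF libraries. Blue points (1424) are short of LC, orange points (243) beyond it.

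A measure of completeness was the difference of CiLC from MEF as a percentage of that of LC, both on the log2 scale. Its median was 47.5% over the 1971 genes, with quartiles of 25.6% and 81.0%. It was 43.7% over the higher genes and 51.9% over the lower ones. Only 214 genes (10.9%) lay between 80% and 120%, 1033 lay below 50% and 131 above 200%. In level, 353 of the 1971 genes (17.9%) were within 1.5-fold between CiLC and LC, beside 59.1% of all genes tested, and 659 differed at least 4-fold. These shares are of unlike sets, since the 1971 genes were kept for a 2-fold difference from MEF and the genes tested were not.

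**Figure D2:**
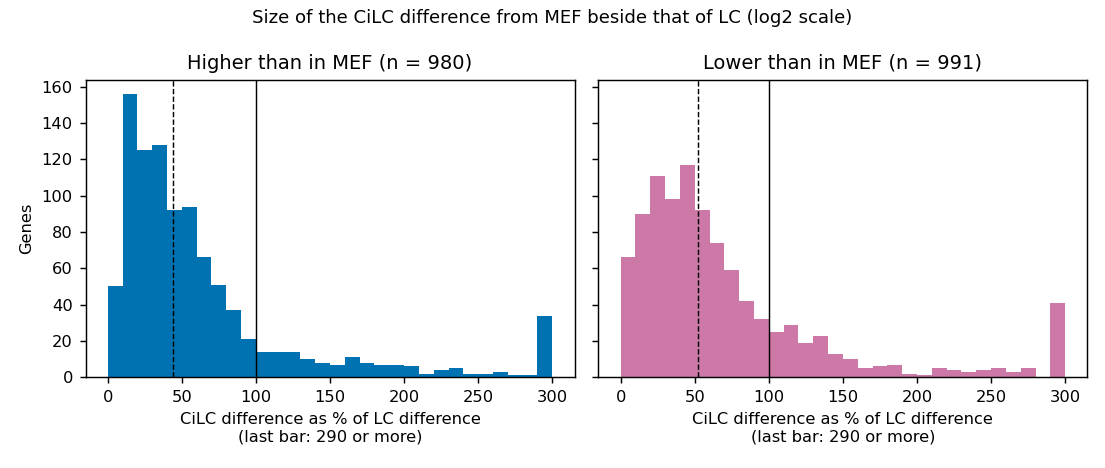
Number of genes (vertical axis) by the CiLC difference from MEF as a percentage of the LC difference (horizontal axis, log2 scale), for the 980 higher and the 991 lower genes. The solid line marks 100%, the dashed line the median (43.7% and 51.9%), and the last bar gathers all larger values.

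Nr5a1 and Gata4, regulators of the gonad, stood well above the fibroblast level in both other cultures, while their list as a whole was mixed. Nr5a1 was at 0.157 and 0.156 CPM in MEF, 69.3 and 68.7 in CiLC and 164 and 167 in LC, with 3 reads in each MEF library. CiLC and LC did not overlap, and CiLC was 2.40-fold lower than LC (log2 difference -1.26 ± 0.048 SE, edgeR adjusted p = 1.04e-16), so that its log2 difference from MEF was 86.4% of that of LC. Gata4 was at 3.83 and 3.96 CPM in MEF, 72.2 and 71.9 in CiLC and 189 and 191 in LC, with CiLC 2.64-fold lower than LC (log2 difference -1.40 ± 0.048 SE, edgeR adjusted p = 1.14e-17). On the gonadal somatic transcription factor list, 8 of 22 tested members (36.4%) had MEF lowest and 6 (27.3%) had MEF highest, and its median log2 fold change was 0.048 for CiLC and 0.53 for LC. This and every later count of list members stands beside 21.2% with MEF lowest and 22.3% with MEF highest over all genes tested. Counts of members short of LC stand beside 72.2% of all kept genes past 2-fold, 78.1% of the higher and 66.5% of the lower ones. Counts beyond LC stand beside 12.3%, 12.6% and 12.1%. All 8 higher members differed at least 2-fold, and each was short of LC. Of the 6 with MEF highest, 3 differed at least 2-fold, and the genes named in this paragraph are all on the higher side. The distance to LC differed widely among the higher members. Tcf21, a mesenchymal regulator of the gonad, was at 0.315 and 0.0521 CPM in MEF, 2.04 and 1.52 in CiLC and 72.7 and 66.2 in LC. The Wilms tumour factor Wt1 and the oestrogen receptor Esr1 were higher in both cultures too, 8.32-fold and 6.09-fold for the mean of CiLC and LC against MEF.

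Genes of steroid synthesis went partway, and unevenly. Star was at 5.08 and 5.47 CPM in MEF, 58.4 and 57.6 in CiLC and 184 and 180.0 in LC. CiLC lay above MEF, as the rule requires, and was 3.14-fold lower than LC (log2 difference -1.65 ± 0.050 SE, edgeR adjusted p = 1.02e-18), with 67.6% of the LC difference. Cyp11a1 was at 1.42 and 1.25 CPM in MEF, 12.8 and 11.8 in CiLC and 718 and 693 in LC. Here CiLC remained 57.3-fold lower than LC (log2 difference -5.84 ± 0.075 SE, edgeR adjusted p = 1.71e-26), with 34.8% of the LC difference. Hsd3b1 was at 0.891 and 0.521 CPM in MEF, 6.36 and 5.88 in CiLC and 36.5 and 34.1 in LC, with CiLC 5.76-fold lower than LC (edgeR adjusted p = 4.12e-16). Hsd11b1, which regenerates active glucocorticoids, was at 0.157 and 0.0521 CPM in MEF, 4.73 and 3.50 in CiLC and 28.9 and 26.4 in LC, so that CiLC had 61.4% of the LC difference. None of the CiLC and LC values of these 4 genes overlapped.

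A pair of steroid enzymes went beyond LC. Akr1c14, a hydroxysteroid dehydrogenase, was at 0.944 and 0.625 CPM in MEF, 34.2 and 36.5 in CiLC and 10.6 and 9.30 in LC, and CiLC was 3.56-fold higher than LC (log2 difference 1.83 ± 0.10 SE, edgeR adjusted p = 3.59e-14). Srd5a2, a 5-alpha reductase, had 0 reads in MEF, 1.32 and 1.67 CPM in CiLC and 0.232 and 0.235 CPM in LC. Against a floor of 3 reads summed over the group, it was at least 19.1-fold higher in CiLC and at least 2.98-fold higher in LC than in MEF. On the steroid hormone synthesis list, 11 of 23 tested members had MEF lowest and 2 had MEF highest, and the list's median log2 fold change was 0.29 for CiLC and 1.69 for LC, beside 0.0054 and -0.0079 over all genes. Of its 7 members past 2-fold, all higher, 5 were short of LC and 2 beyond, beside 78.1% and 12.6% of all higher kept genes past 2-fold. Without MEF replicate 2, 17 members had MEF lowest, and without MEF replicate 1, 4 had MEF highest.

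On the Leydig cell identity list, 13 of 21 tested members had MEF lowest and all 13 differed at least 2-fold. Ptgds, a prostaglandin D synthase, was at 0.157 and 0.104 CPM in MEF, 30.4 and 24.3 in CiLC and 6.44 and 5.71 in LC. It exceeded LC in both CiLC libraries, 4.50-fold higher (log2 difference 2.17 ± 0.13 SE, edgeR adjusted p = 1.92e-13). Osr2, a zinc finger factor of urogenital mesenchyme, was at 1.21 and 0.937 CPM in MEF, 16.4 and 16 in CiLC and 85.9 and 92.2 in LC, with CiLC 5.49-fold lower than LC (edgeR adjusted p = 1.60e-19). Hpgds, the blood-cell type of prostaglandin D synthase, was the member with MEF highest, at 102 and 101 CPM in MEF, 51.4 and 48.2 in CiLC and 10.4 and 10.9 in LC, and without MEF replicate 2 there were 2 such members. Markers of the Sertoli cell, the nurse cell inside the tubule, were also among the kept genes: 9 of 17 tested members had MEF lowest, beside 21.2% of all genes, and 1 had MEF highest. Clu, a secreted chaperone, was at 15.7 and 18.7 CPM in MEF, 78.9 and 80.5 in CiLC and 1939 and 1944 in LC. Inhbb, an inhibin and activin subunit, was at 8.28 and 9.89 CPM in MEF, 133 and 137 in CiLC and 81.6 and 80.4 in LC, where CiLC exceeded LC (edgeR adjusted p = 1.15e-11). Dmrt1, a testis factor, had 0 reads in MEF, 49 in CiLC and 89 in LC. Dhh, the hedgehog ligand of the tubule, had 2 reads in MEF, 11.9 estimated reads in CiLC and 448 in LC. The defining Sertoli marker Amh was low throughout, at 4 to 7 reads in each MEF and CiLC library and 27 in each LC library. The summed level of the 20 genes of the Sertoli list was 660 and 651 CPM in MEF, 904 and 937 in CiLC and 3526 and 3508 in LC, and its part in the LC levels of other genes was not tested.

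**Figure D3:**
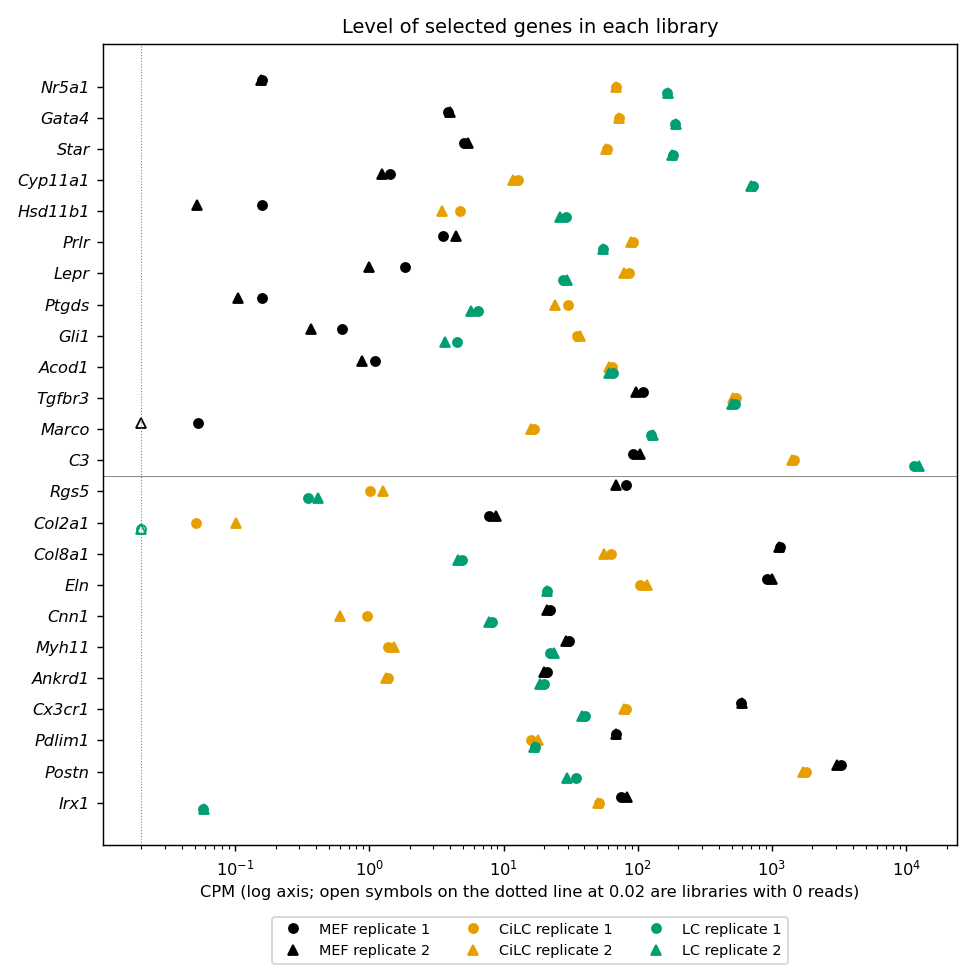
CPM (log axis) of 24 kept genes in each of the 6 libraries, with circles for replicate 1 and triangles for replicate 2. Above the grey line MEF is lowest (Nr5a1 at about 0.16 CPM against 68.7 to 167 in the other libraries), below it MEF is highest, and open symbols mark libraries with 0 reads.

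Receptors for hormones and cytokines were among the shared changes, 14 of 27 tested members with MEF lowest and 5 with MEF highest. Of those 5, 3 differed at least 2-fold, and the receptors named here all had MEF lowest. Prlr, the prolactin receptor, was at 3.51 and 4.42 CPM in MEF, 91.8 and 88.6 in CiLC and 55 and 54.6 in LC. Both CiLC values were above both LC values, by 1.65-fold (log2 difference 0.72 ± 0.056 SE, edgeR adjusted p = 5.90e-11). Lepr, the leptin receptor, was at 1.83 and 0.989 CPM in MEF, 86 and 78.8 in CiLC and 27.8 and 29.7 in LC, with CiLC 2.86-fold higher than LC (log2 difference 1.52 ± 0.072 SE, edgeR adjusted p = 4.29e-15). The opposite held for Npr1, a natriuretic peptide receptor, at 0.996 and 0.885 CPM in MEF, 2.54 and 2.18 in CiLC and 159.5 and 154 in LC, where CiLC reached 17.1% of the LC difference. Past 2-fold, 10 receptor genes were short of LC, 2 were beyond and 1 was not called. Beside them, 72.2% of all kept genes past 2-fold were short and 12.3% beyond. Prlr and Lepr were the 2 receptor genes beyond LC. Kit, the stem cell factor receptor, was at 0.105 and 0.468 CPM in MEF, 2.14 and 1.12 in CiLC and 9.28 and 8.89 in LC. Reads of Prlr and Lepr were not whole numbers in any library, so part of their reads may belong to other genes or transcripts.

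In the hedgehog pathway, which the tubule uses to signal to Leydig precursors, 3 of 16 tested members (18.8%) had MEF lowest, near the 21.2% over all genes, with the response genes Gli1 and Ptch1 among them, and Foxd1 had MEF highest. Gli1, the activator, was at 0.629 and 0.364 CPM in MEF, 35 and 37.2 in CiLC and 4.46 and 3.65 in LC, so that CiLC was 8.87-fold higher than LC (log2 difference 3.15 ± 0.14 SE, edgeR adjusted p = 4.65e-17). Ptch1, the receptor, was at 17.7 and 20.4 CPM in MEF, 75.7 and 72.7 in CiLC and 126 and 141 in LC, and there CiLC was 1.80-fold lower than LC (edgeR adjusted p = 8.36e-12). The order of CiLC and LC thus differed between these 2 genes, which the same pathway is known to induce. Foxd1, a forkhead factor of stroma, was at 26.1 and 25.8 CPM in MEF, 12.4 and 11.4 in CiLC and 0.116 and 0.0589 in LC, and 2 members had MEF highest without CiLC replicate 1 or without MEF replicate 2.

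Among Wnt antagonists and targets, 5 of 21 tested members (23.8%) had MEF lowest, near the 21.2% over all genes, and 8 (38.1%) had MEF highest. Sfrp2, a secreted antagonist, was at 22.9 and 26 CPM in MEF, 299.7 and 288 in CiLC and 181 and 169 in LC, with CiLC beyond LC. The antagonist Sfrp4 was lower in both cultures, at 170.5 and 168 CPM in MEF, 48.4 and 48.1 in CiLC and 5.86 and 7.30 in LC. The antagonist Dkk2 was at 106 and 92.5 CPM in MEF, 45.3 and 48 in CiLC and 0.348 and 0.412 in LC. Rspo2, which strengthens Wnt signals, was at 17.9 and 15.8 CPM in MEF, 4.33 and 3.50 in CiLC and 0.0580 and 0 in LC. For Sfrp4 and Dkk2 the CiLC difference was 38.7% and 14.1% of that of LC, and Rspo2 had 1 read in LC.

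Among kept genes called in both CiLC and LC, with at least 5 CPM in each of their libraries, the 10 farthest above MEF were Marco, Nr5a1, Chil1, Steap4, Nos2, Apln, Saa3, Acod1, Lcn2 and Ptgds, ranked by the smaller of the fold changes in CiLC and LC. Marco, a scavenger receptor of macrophages, had 1 read in MEF, 651 in CiLC and 4375 in LC, a factor of 633 for CiLC, within a counting interval of 113 to 25043, and of 4893 for LC, within one of 878 to 193311. Chil1, a secreted chitinase-like protein, was at 0.157 and 0.312 CPM in MEF, 33.9 and 34.9 in CiLC and 47.3 and 42.1 in LC. Steap4, a metal reductase, was at 1.99 and 1.98 CPM in MEF, 263 and 247 in CiLC and 402 and 399 in LC. These latter genes came close to LC, at 94.7% and 91.4% of its difference, although CiLC was still 1.30-fold lower than LC in Chil1 (edgeR adjusted p = 4.30e-05) and 1.57-fold lower in Steap4 (edgeR adjusted p = 9.76e-12). Nos2, the inducible nitric oxide synthase, had 0 and 3 reads in MEF and was at 11.6 and 8.16 CPM in CiLC and 68.9 and 71.3 in LC. Apln, the peptide apelin, was at 0.419 and 0.468 CPM in MEF, 41.3 and 38.2 in CiLC and 113 and 115 in LC. Acod1, the itaconate-making enzyme of activated macrophages, was at 1.10 and 0.885 CPM in MEF, 64 and 61.2 in CiLC and 65.5 and 60.5 in LC, and its difference between CiLC and LC was -0.0096 with a 95% interval from -0.13 to 0.11 on the log2 scale (edgeR adjusted p = 0.891).

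Acute phase, chemokine and complement genes mostly had MEF lowest. On the cytokine and chemokine list, 20 of 34 tested members had MEF lowest and 5 had MEF highest, and on the complement list 15 of 23 and 4. Saa3, an acute phase protein, was at 2.67 and 1.93 CPM in MEF, 193 and 201 in CiLC and 6054 and 5355 in LC. Lcn2, an iron-binding defence protein, was at 0.157 and 0.104 CPM in MEF, 6.46 and 6.03 in CiLC and 358 and 335 in LC. Cxcl5, a neutrophil attractant, was at 2.31 and 1.93 CPM in MEF, 52.1 and 54.8 in CiLC and 1146 and 1213 in LC. In each of these CiLC stood above MEF and below LC, 29-fold lower than LC in Saa3, 55.4-fold lower in Lcn2 and 22.1-fold lower in Cxcl5. Mmp9, a gelatinase of macrophages and other cells, was the reverse, at 0.996 and 1.93 CPM in MEF, 364 and 381 in CiLC and 38.3 and 40.3 in LC, with CiLC 9.48-fold higher than LC (log2 difference 3.24 ± 0.064 SE, edgeR adjusted p = 2.04e-22). Cxcl13, a B cell attractant, also went beyond LC, with 0 reads in MEF, 207 in CiLC and 8 in LC, at least 67.1-fold and at least 2.98-fold above MEF.

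The complement protein C3 was at 91.8 and 104 CPM in MEF, 1458 and 1409.6 in CiLC and 11493 and 12348 in LC, with 55.9% of the LC difference in CiLC. Cfb, of the alternative pathway, was at 2.99 and 2.76 CPM in MEF, 15.4 and 13.3 in CiLC and 1209.9 and 1160 in LC, and it had the largest gap to LC of the higher genes with at least 5 CPM in every CiLC and LC library, 82.7-fold lower in CiLC (log2 difference -6.37 ± 0.075 SE, edgeR adjusted p = 1.10e-26). The terminal component C7 was at 0.262 and 0.312 CPM in MEF, 3.66 and 4.06 in CiLC and 10.6 and 13.5 in LC. The 4 members with MEF highest were C1qa, C1qb, C1qc and C3ar1, genes that macrophages are known to express. Interferon response genes had MEF lowest in 19 of 29 tested members and MEF highest in none. All 11 of them past 2-fold were short of LC, with a median completeness of 23.5%. Gbp3, a guanylate-binding protein, was at 3.46 and 2.86 CPM in MEF, 13 and 12.7 in CiLC and 43.5 and 41.9 in LC. Iigp1, an immunity GTPase, was at 3.56 and 3.75 CPM in MEF, 14.3 and 13.3 in CiLC and 38.8 and 39.97 in LC. Irf7, a factor of the interferon loop, was at 8.75 and 9.63 CPM in MEF, 12.3 and 12.9 in CiLC and 282 and 279.9 in LC. For Irf7 and Ifi44 the CiLC difference was 9.17% and 15.9% of that of LC, and for Gbp3 and Iigp1 53.6% and 55.6%.

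Lipid and sterol genes also leaned to the higher side. In lipid storage and uptake 13 of 24 tested members had MEF lowest and 3 had MEF highest. Cd36, a fatty acid transporter, was at 4.04 and 3.80 CPM in MEF, 30.7 and 31.6 in CiLC and 66.3 and 59.8 in LC. Angptl4, an inhibitor of lipoprotein lipase, was at 6.19 and 6.61 CPM in MEF, 43.5 and 44.9 in CiLC and 328 and 311 in LC. Plin1, a lipid droplet protein, had 0 reads in MEF, 10 in CiLC and 107 in LC. Mgll, which splits monoglycerides, was at 25.9 and 28.5 CPM in MEF, 7.43 and 7.71 in CiLC and 1.57 and 2.65 in LC, with MEF highest. In cholesterol synthesis 13 of 24 tested members had MEF lowest and none had MEF highest, but the CiLC share was small. The list's median log2 fold change was 0.19 for CiLC and 2.00 for LC, and all 6 members past 2-fold were short of LC, with a median completeness of 17.9%. The sterol oxidase Msmo1 was at 26.3 and 25.9 CPM in MEF, 36.6 and 35.6 in CiLC and 205 and 211 in LC. The cyclase Lss was at 18.6 and 20.8 CPM in MEF, 27.8 and 26.4 in CiLC and 95.4 and 98.4 in LC. In both genes CiLC lay just above MEF. Stard4, a cholesterol carrier, was at 17.5 and 18.5 CPM in MEF, 31.3 and 30.6 in CiLC and 72.5 and 79.5 in LC. Idi1, an isomerase of the pathway, was at 2.10 and 1.35 CPM in MEF, 4.99 and 2.43 in CiLC and 13 and 14 in LC, with its CiLC libraries far apart.

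Antioxidant, retinoid and respiratory genes had more members with MEF lowest than highest. On the NRF2 antioxidant and detoxification list 20 of 28 tested members had MEF lowest and 1 had MEF highest, with 8 past 2-fold, all short of LC. Sod2, the mitochondrial superoxide dismutase, was at 33.9 and 36.8 CPM in MEF, 137 and 139.5 in CiLC and 524 and 519 in LC. Mgst1, a membrane glutathione transferase, was at 21.9 and 19.7 CPM in MEF, 97.2 and 93.4 in CiLC and 239.6 and 233 in LC. The transferase Gstm1 was at 52.5 and 57 CPM in MEF, 89.3 and 102 in CiLC and 1356 and 1389 in LC. CiLC reached 62.6% of the LC difference in Mgst1 but 17.2% in Gstm1, and reads of such gene families may be split between relatives. In the retinoid list 7 of 18 tested members had MEF lowest and 2 had MEF highest. The retinal oxidase Aldh1a1 was at 5.14 and 6.87 CPM in MEF, 39.7 and 34.9 in CiLC and 418 and 394 in LC. Its relative Aldh1a2 was at 3.41 and 3.90 CPM in MEF, 9.26 and 10.4 in CiLC and 379 and 385 in LC. Both were short of LC, with 43.3% and 21.1% of its difference. Rbp4, the plasma carrier of retinol, was at 0.681 and 0.677 CPM in MEF, 5.04 and 5.73 in CiLC and 5.91 and 5.36 in LC, and its log2 difference between CiLC and LC was -0.066 with a 95% interval from -0.40 to 0.27. Of 28 oxidative phosphorylation genes 13 had MEF lowest and none had MEF highest, yet none differed 2-fold. The kept member farthest from MEF was Cox6c, a cytochrome oxidase subunit, at 20.7 and 21.7 CPM in MEF, 31.4 and 34.7 in CiLC and 44 and 36.4 in LC.

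Contractile genes were prominent among those with MEF highest, and several lay farther from the fibroblast level in CiLC than in LC. Of 18 tested members of the smooth muscle contractile list, 10 had MEF highest and none had MEF lowest. Of the 9 past 2-fold, 5 were beyond LC, 3 short and 1 not called, against 12.3% beyond LC over all kept genes past 2-fold. The list's median log2 fold change was -2.39 for CiLC and -0.42 for LC, while its summed level was 4502 and 4417 CPM in MEF, 1269.7 and 1289 in CiLC and 4994 and 4974 in LC. Cnn1, an actin-binding calponin, was at 22.2 and 21.2 CPM in MEF, 0.967 and 0.609 in CiLC and 8.18 and 7.83 in LC, with CiLC 10.1-fold lower than LC (log2 difference -3.33 ± 0.26 SE, edgeR adjusted p = 8.71e-13). Myh11, smooth muscle myosin, was at 30.5 and 29 CPM in MEF, 1.37 and 1.52 in CiLC and 22.3 and 23.5 in LC. LC was 1.30-fold lower than MEF, while CiLC was 15.8-fold lower than LC (log2 difference -3.98 ± 0.18 SE, edgeR adjusted p = 1.36e-17). Acta2, smooth muscle actin, was at 1168 and 1091 CPM in MEF, 98.4 and 103 in CiLC and 424 and 430.3 in LC, lowest in CiLC. The opposite order was seen for Itga8, an integrin chain, at 122 and 108 CPM in MEF, 25.2 and 25 in CiLC and 6.38 and 7.48 in LC. Pgm5, a protein of adhesion plaques, was lowest in LC too, at 97 and 98.3 CPM in MEF, 14.2 and 12.1 in CiLC and 0 and 0.118 in LC.

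Pericyte genes had MEF highest in 7 of 14 tested members and MEF lowest in 1. Rgs5, a regulator of G protein signals that marks pericytes, was at 81.2 and 68.6 CPM in MEF, 1.02 and 1.27 in CiLC and 0.348 and 0.412 in LC. It was low in all 4 CiLC and LC libraries, though CiLC was 2.97-fold higher than LC (log2 difference 1.57 ± 0.50 SE, edgeR adjusted p = 0.00371), a call that was lost without LC replicate 1. Rgs4, a relative, was at 37.7 and 39.6 CPM in MEF, 5.60 and 5.98 in CiLC and 1.57 and 1.47 in LC. Vtn, the adhesion protein vitronectin, was at 14.3 and 11.1 CPM in MEF, 0.509 and 0.456 in CiLC and 1.74 and 1.88 in LC. Rgs4 was thus lowest in LC and Vtn in CiLC. Pdgfrb, a growth factor receptor of pericytes and fibroblasts, was lower in both cultures by 3.05-fold and 3.12-fold, with no call between them (edgeR adjusted p = 0.508). The exception was Ndufa4l2, a mitochondrial protein of hypoxic cells, at 2.78 and 2.55 CPM in MEF, 4.27 and 4.21 in CiLC and 153 and 155 in LC.

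In the TGF-beta and YAP response list 14 of 25 tested members had MEF highest and 1 had MEF lowest, or 2 without MEF replicate 2. Postn, the matrix protein periostin, was at 3260.3 and 3022 CPM in MEF, 1779 and 1701 in CiLC and 34.4 and 29.9 in LC, so that CiLC reached 12.9% of the LC difference. Tgfb3, a ligand, was at 166 and 174 CPM in MEF, 68 and 65.7 in CiLC and 39.2 and 38.5 in LC. The matrix protein gene Tgfbi was at 260.2 and 262 CPM in MEF, 228 and 227 in CiLC and 33.7 and 34.7 in LC, so that nearly all of its difference was in LC. Ankrd1, a nuclear and sarcomere protein induced by YAP and its partner TEAD, was at 21 and 20.1 CPM in MEF, 1.37 and 1.32 in CiLC and 20.1 and 18.5 in LC. Its difference between LC and MEF, 1.07-fold, was not called (edgeR adjusted p = 0.358), while CiLC was 14.3-fold lower than LC (log2 difference -3.84 ± 0.19 SE, edgeR adjusted p = 1.06e-16). The promoter windows of Ankrd1 and of Vtn, given above, each carry the TEAD-type letters CATTCC at more than 1 place. That of Ankrd1 is shown as an example, chosen after its values were seen. It is from RefSeq, build GRCm38.p6, chr19:36119795-36120094, minus strand, 250 bases before to 50 after the start of the gene, read 5′ to 3′, and capitals mark the motif on the opposite strand, first at position -210 and again at -123 from the start.
Ankrd1: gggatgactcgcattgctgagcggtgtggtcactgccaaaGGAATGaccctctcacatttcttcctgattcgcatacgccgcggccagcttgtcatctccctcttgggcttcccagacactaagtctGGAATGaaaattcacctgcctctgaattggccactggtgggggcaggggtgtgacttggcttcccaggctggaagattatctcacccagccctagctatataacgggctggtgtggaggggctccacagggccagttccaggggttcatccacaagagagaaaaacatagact

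Motifs were counted in the same promoter windows of all genes, on both strands and with no test. A RefSeq window was found for 11483 of the 14581 genes tested, with 14667 windows, and for 1437 of the 1971 genes past 2-fold, with 932 windows for higher and 936 for lower genes. CATTCC was found in 12.4% of all windows, 15.2% of those of higher genes and 14.3% of those of lower genes. AAGGTCA, the type of site that NR5A1 binds, was found in 3.27%, 3.54% and 3.85%. AGATAA, of the kind that Gata4 binds, was found in 6.83%, 9.12% and 7.37%, while CCACCCA, the core of a GLI-type site, was found in 9.66%, 10.6% and 10.04%. The CArG box, which serum response factor binds, was found in 1.35%, 0.966% and 1.60%. Such matches describe letters in these short windows only.

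Matrix genes leaned to the lower side: 26 of 53 tested members had MEF highest and 8 had MEF lowest. Col8a1, a short-chain collagen, was at 1151 and 1127 CPM in MEF, 63.3 and 55.5 in CiLC and 4.93 and 4.53 in LC. Eln, elastin, was at 920.4 and 1007 CPM in MEF, 103 and 116 in CiLC and 21.1 and 21.1 in LC. Aspn, a small proteoglycan, was at 523 and 437 CPM in MEF, 292 and 274 in CiLC and 0.638 and 1.12 in LC. CiLC had moved 54.1%, 56.9% and 8.45% of the LC difference in these genes. Efemp1, a fibulin, went the other way, at 10.2 and 9.37 CPM in MEF, 267 and 253 in CiLC and 159.9 and 154 in LC, with CiLC beyond LC (edgeR adjusted p = 3.10e-12). Dcn, the proteoglycan decorin, had MEF lowest too, at 475 and 434 CPM in MEF, 1261 and 1299 in CiLC and 1176 and 1072 in LC, with a call between CiLC and LC (edgeR adjusted p = 0.00285) that was lost without LC replicate 2. Fibroblast markers were mixed: Col1a1 and Col1a2 had MEF highest, Col3a1 and Pdgfra had MEF lowest, like Dcn, and in Thy1 MEF lay between LC and CiLC. Among cartilage and bone genes 10 of 19 tested members had MEF highest and 3 had MEF lowest. Col2a1, the collagen of cartilage, was at 7.81 and 8.80 CPM in MEF, had 1 and 2 reads in CiLC and had 0 reads in LC. MEF exceeded CiLC by a factor of 109, within a counting interval of 37.0 to 531, and MEF was at least 94.8-fold above LC. Col10a1, of growth cartilage, was at 5.66 and 7.08 CPM in MEF, 0.102 and 0.355 in CiLC and 0.0580 and 0.118 in LC. Matn4, a matrilin, was at 8.13 and 9.16 CPM in MEF, 1.22 and 0.811 in CiLC and 0.0580 and 0 in LC. Alpl, alkaline phosphatase, had MEF lowest, at 0.524 and 0.833 CPM in MEF, 1.93 and 1.52 in CiLC and 80.1 and 80.5 in LC. Other cartilage markers did not go with Col2a1. Acan, the proteoglycan aggrecan, was at 0.0524 and 0.156 CPM in MEF, 0.0509 and 0.0507 in CiLC and 38.6 and 39.1 in LC. Sox9, a factor of cartilage and Sertoli cells, was at 8.11 and 8.53 CPM in MEF, 10.2 and 9.28 in CiLC and 45.1 and 47.5 in LC. Col9a1 had at most 2 reads in any library.

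Genes of body position showed small shifts in CiLC beside large ones in LC. Of 45 tested members of the limb and axial patterning list, 22 had MEF highest and 7 had MEF lowest. Past 2-fold, 22 of 23 were short of LC, none went beyond, and the median completeness was 15.8%. Hoxa9 was at 15.2 and 14.6 CPM in MEF, 12.8 and 12.7 in CiLC and 0.232 and 0.235 in LC. Against MEF the CiLC difference of Hoxa9 was not called (edgeR adjusted p = 0.0547). Hoxb8 was at 33.2 and 36.3 CPM in MEF, 22.8 and 22.9 in CiLC and 0.870 and 1.00 in LC. Hoxd11 had MEF lowest, at 0.367 and 0.677 CPM in MEF, 1.07 and 0.913 in CiLC and 15.7 and 16.2 in LC. The exception was Meox1, a homeobox factor of the somites, at 23.7 and 26.3 CPM in MEF, 1.78 and 1.22 in CiLC and 1.04 and 1.06 in LC, where CiLC and LC differed by 0.51 with a 95% interval from -0.11 to 1.13 on the log2 scale (edgeR adjusted p = 0.128).

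The cell cycle list had the largest share of kept genes of any list: 32 of 36 tested members had MEF highest and none had MEF lowest, against 22.3% with MEF highest over all genes. Only 9 differed 2-fold, and all 9 were short of LC. Ccnd1, cyclin D1, was at 526 and 548 CPM in MEF, 288 and 280.3 in CiLC and 75.3 and 76.6 in LC. Aurkb, a mitotic kinase, was at 24.8 and 26.4 CPM in MEF, 12.5 and 14.5 in CiLC and 7.94 and 7.06 in LC. Ccnb2, a mitotic cyclin, was at 18.8 and 20.5 CPM in MEF, 14.6 and 15 in CiLC and 4.17 and 3.94 in LC. MEF was highest in each, CiLC intermediate and LC lowest. The list's median log2 fold change was -0.40 for CiLC and -1.23 for LC. Passage number differed between LC and the other cultures and its part was not tested.

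The neural, muscle and vessel lists had members on the lower side. Of 13 tested neural genes 7 had MEF highest and none had MEF lowest. Map2, of neuronal microtubules, was at 84.8 and 77.9 CPM in MEF, 11.7 and 12.2 in CiLC and 1.97 and 2.65 in LC. Gap43, a growth cone protein, was at 8.07 and 7.55 CPM in MEF, 2.75 and 3.30 in CiLC and 0 and 0 in LC. Both were lower in LC than in CiLC. Sox10, a factor of neural crest and glia, was at 3.88 and 4.53 CPM in MEF, 0.814 and 1.01 in CiLC and 1.04 and 0.589 in LC, with a log2 difference between CiLC and LC of 0.16 with a 95% interval from -0.64 to 0.96. Of 7 tested skeletal muscle genes 4 had MEF highest and 1 had MEF lowest, or 2 without CiLC replicate 1. Tnnt3, a troponin, was at 4.46 and 3.85 CPM in MEF, 0.967 and 0.456 in CiLC and 0.754 and 1.06 in LC. Tnnc1, the member with MEF lowest, was at 0.734 and 1.20 CPM in MEF, 1.53 and 1.22 in CiLC and 5.51 and 4.59 in LC, where the lowest CiLC value almost met the highest MEF value. Endothelial genes split 5 with MEF lowest (35.7%) and 4 with MEF highest (28.6%) of 14. Past 2-fold, 5 were beyond LC and 3 short, beside 12.3% and 72.2% of all kept genes past 2-fold, with a median completeness of 211%. Of the endothelial genes given next, Erg lay beyond LC, while Flt1, Cdh5 and Sox18 were short. Flt1, a receptor of vascular growth factors, was at 134 and 134 CPM in MEF, 32.8 and 31.3 in CiLC and 4.06 and 3.94 in LC. Erg, an endothelial factor, was at 3.62 and 4.06 CPM in MEF, 0.0509 and 0 in CiLC and 0.174 and 0.471 in LC. Cdh5, the endothelial cadherin, had MEF lowest, at 4.14 and 3.02 CPM in MEF, 4.68 and 4.97 in CiLC and 57.2 and 63.9 in LC, as did Sox18, with 1 read in MEF, 10 in CiLC and 35 in LC. Pecam1, which defines endothelium, had 3 to 10 reads in each MEF and CiLC library and 23 and 24 in LC.

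Macrophage genes had MEF highest in 11 of 24 tested members and MEF lowest in 4, Adgre1, Marco, Itgam and Msr1. Cx3cr1, a chemokine receptor of resident macrophages, was at 582 and 598 CPM in MEF, 82.2 and 79.4 in CiLC and 40.6 and 38.7 in LC, with reads that were not whole numbers in any library. C1qb, of the first complement complex, was at 464 and 484 CPM in MEF, 148 and 153 in CiLC and 85.6 and 75.1 in LC. Fcrls, a receptor-like gene of microglia, was at 556 and 544 CPM in MEF, 26.2 and 26 in CiLC and 1.39 and 0.765 in LC. P2ry13, a nucleotide receptor also of microglia, was at 8.49 and 7.39 CPM in MEF, 1.93 and 2.18 in CiLC and 2.15 and 1.94 in LC. CiLC had a higher summed macrophage level than MEF, as given above, while the list members Cx3cr1 and C1qb were lower. Fcrls is not on the list and is no part of that sum. Lyz2, a lysozyme outside the kept genes, made up a mean of 7571 CPM of the sum in CiLC and 2660.2 in MEF. That gap was larger than the gap between the sums, so the higher sum in CiLC rested on Lyz2. The summed level in LC was lower than in MEF, and the part of the amount of macrophage RNA in the LC values was not tested. Treml2, a receptor of myeloid cells, was lowest in CiLC, at 7.02 and 8.22 CPM in MEF, 0.102 and 0.101 in CiLC and 1.39 and 2.12 in LC. Cst7, an inhibitor of proteases in immune cells, was at 12.1 and 12.5 CPM in MEF, 0.356 and 0.0507 in CiLC and 0.406 and 0.412 in LC, and its difference between CiLC and LC was not called (edgeR adjusted p = 0.164).

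Guidance, imprinted and signalling genes were mixed. Among axon guidance genes 14 of 42 tested members (33.3%) had MEF highest, and 8 (19%) had MEF lowest, near the 21.2% over all genes. Sema5b, a semaphorin, was at 28.8 and 29.8 CPM in MEF, 0.356 and 0.659 in CiLC and 2.26 and 2.06 in LC, so that CiLC lay beyond LC. Epha3, an ephrin receptor, was at 82.9 and 76.5 CPM in MEF, 41.6 and 40.6 in CiLC and 0.812 and 0.412 in LC, with 13.9% of the LC difference in CiLC. Imprinted growth genes had MEF lowest in 2 (11.8%) and MEF highest in 3 (17.6%) of 17 members, no more often than all genes. Peg10, a retroelement-derived gene, was at 12.5 and 13.5 CPM in MEF, 22.7 and 25.2 in CiLC and 92.5 and 93.6 in LC. Grb10, which restrains insulin signals, was at 615 and 614 CPM in MEF, 358 and 370.1 in CiLC and 197 and 192 in LC.

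Genes that respond to cyclic AMP, the messenger of luteinizing hormone in Leydig cells, had MEF lowest in 5 (19.2%) and MEF highest in 9 (34.6%) of 26 members, the first near the 21.2% over all genes. Fosb, an immediate early factor, was at 804 and 832 CPM in MEF, 178 and 191 in CiLC and 383 and 454 in LC. Rgs2, a brake on G protein signals, was at 127 and 132 CPM in MEF, 40.8 and 44 in CiLC and 66.3 and 66.1 in LC. CiLC lay beyond LC in both. Atf3, a stress factor, was at 157 and 162 CPM in MEF, 44.1 and 43 in CiLC and 24.8 and 26.8 in LC, short of LC. Of 18 p53 response genes 2 (11.1%) had MEF lowest and 5 (27.8%) had MEF highest, such as Zmat3 at 193 and 182 CPM in MEF, 144 and 151 in CiLC and 60.9 and 55.3 in LC. Fas, the death receptor, had MEF lowest, at 15.1 and 14.6 CPM in MEF, 25.4 and 27.6 in CiLC and 25.9 and 27.2 in LC, and its log2 difference between CiLC and LC was -0.0021 with a 95% interval from -0.16 to 0.15. Unfolded protein and amino acid stress genes had MEF lowest in 8 and MEF highest in 3 of 23 members, and Vldlr, a lipoprotein receptor, alone passed 2-fold, at 38.9 and 36.1 CPM in MEF, 76.5 and 71.2 in CiLC and 177 and 176 in LC.

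Epithelial and germ cell genes gave few members. In the epithelial and mesothelial list 2 of 15 had MEF lowest, or 4 without CiLC replicate 1, and 1 had MEF highest. Krt18, a simple keratin, was at 0.891 and 0.885 CPM in MEF, 20.5 and 19 in CiLC and 1.45 and 1.30 in LC, far above MEF in CiLC and not called against it in LC (edgeR adjusted p = 0.0702). Cdh1, the epithelial cadherin, was at 21.1 and 19.7 CPM in MEF, 2.19 and 1.72 in CiLC and 3.31 and 3.83 in LC. Of 4 tested germ cell genes Zbtb16, at 3.25 and 3.85 CPM in MEF, 4.73 and 4.31 in CiLC and 28.7 and 28.5 in LC, and Sycp1 had MEF lowest. Without CiLC replicate 1, 4 members had MEF lowest. In that setting 14902 genes passed the filter in place of 14581, so those 4 need not be the 4 tested here.

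**Figure D4:**
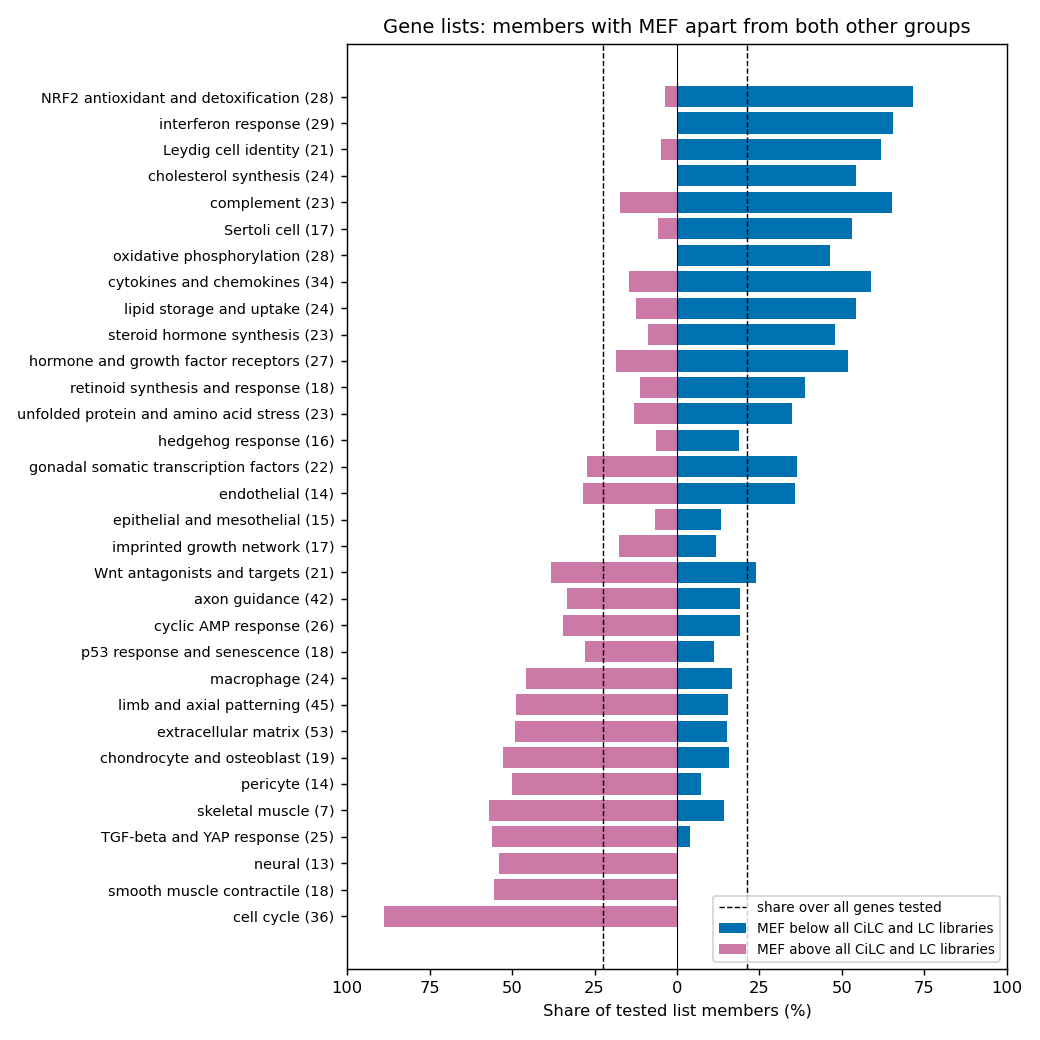
Share of tested members (horizontal axis, percent) with MEF below (blue, right) or above (pink, left) all CiLC and LC libraries, for each gene list with 7 or more tested members, given in brackets. Dashed lines mark the share over all genes, 21.2% and 22.3%, and the cell cycle list, with 32 of 36 members on the left, and the NRF2 list, with 20 of 28 on the right, lie farthest out.

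List medians differed between the cultures. For LC the Sertoli list stood at 3.56, the retinoid list at 2.73 and the patterning list at -2.38, while for CiLC these were 0.23, 0.19 and -0.14. The complement list was high in both, at 1.79 for CiLC and 2.73 for LC. Epithelial and imprinted genes had medians of opposite sign, 2.99 and 0.42 for CiLC and -2.51 and -2.28 for LC. The fitted fold of a gene with 0 reads in a group depends on the prior count, and putting such genes at the bound that 3 reads summed over the group give moved 5 list medians, none of which changed sign. The epithelial median for CiLC became 2.31, the steroid synthesis median for LC 1.58 and the chondrocyte and osteoblast median for LC -0.84. The cytokine and chemokine medians became 1.02 for CiLC and 2.05 for LC, in place of 1.10 and 2.40.

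**Figure D5:**
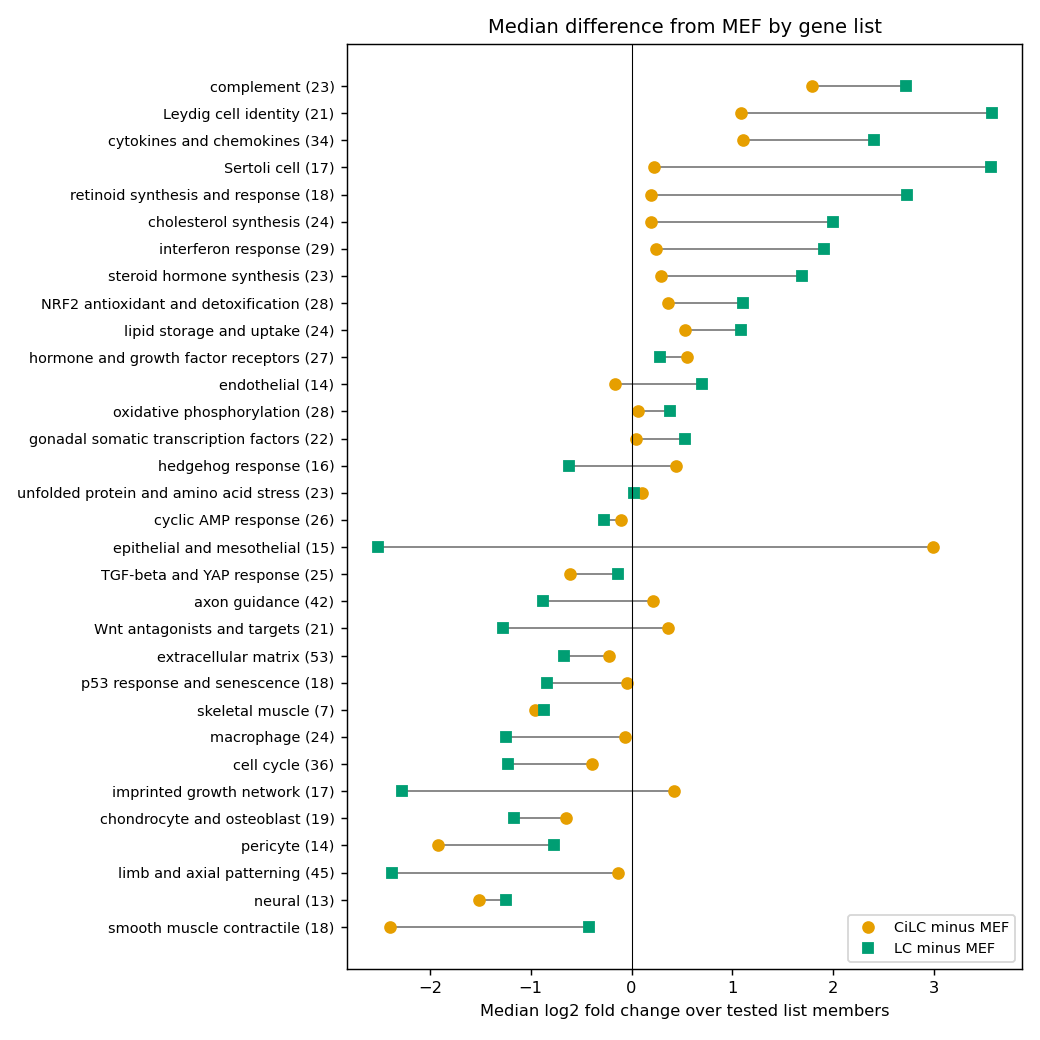
Median log2 fold change from MEF (horizontal axis) over the tested members of each list, for CiLC (circles) and LC (squares), which share the MEF libraries. The contractile list lies lower in CiLC (-2.39) than in LC (-0.42), and the Leydig list higher in LC (3.57) than in CiLC (1.09).

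The most complete shared changes were genes whose CiLC and LC levels lay within their spread, selected for this nearness, so that their intervals are given and no call is drawn from them. Tgfbr3, a co-receptor for TGF-beta and inhibin, was at 110.1 and 97.3 CPM in MEF, 541 and 512 in CiLC and 533 and 503 in LC, and its log2 difference between CiLC and LC was 0.022 with a 95% interval from -0.085 to 0.13. Klf9, a factor that responds to steroid hormones, was at 41.8 and 43.5 CPM in MEF, 91.7 and 95.2 in CiLC and 91 and 93.9 in LC, and this difference was 0.016 with a 95% interval from -0.089 to 0.12. Values of CiLC and LC overlapped in both genes, and MEF lay below, as the rule requires. Npy1r, a neuropeptide receptor, was at 6.29 and 5.93 CPM in MEF, 15.7 and 13.6 in CiLC and 15.2 and 15.2 in LC, and the difference was -0.052 with a 95% interval from -0.26 to 0.15. On the lower side Pdlim1, an adaptor of actin fibres, was at 68.8 and 69.2 CPM in MEF, 15.9 and 17.9 in CiLC and 17 and 16.8 in LC, and the difference was -0.0023 with a 95% interval from -0.18 to 0.18. Mgp, an inhibitor of matrix mineral, was at 77.3 and 80.8 CPM in MEF, 34.7 and 35 in CiLC and 35.9 and 34.6 in LC, and the difference was -0.015 with a 95% interval from -0.15 to 0.12. These intervals are narrow beside the distance from MEF. Gdpd5, a membrane phosphodiesterase, was at 54.7 and 57.5 CPM in MEF, 19 and 21.3 in CiLC and 21 and 19.1 in LC, and the difference was 0.0072 with a 95% interval from -0.17 to 0.18. Slc1a2, a glutamate transporter, was at 8.02 and 8.85 CPM in MEF, 2.09 and 2.08 in CiLC and 1.57 and 2.59 in LC, and its low reads left a wider interval, from -0.51 to 0.52. The scaling bears on this nearness: with total counts in place of TMM, all genes moved by a median of 0.215 on the log2 scale towards CiLC, and edgeR then called Acod1 (0.21, adjusted p = 0.00286), Tgfbr3 (0.24, adjusted p = 0.000282), Klf9 (0.23, adjusted p = 0.000238), Pdlim1 (0.21, adjusted p = 0.0297), Mgp (0.20, adjusted p = 0.00771), Gdpd5 (0.22, adjusted p = 0.0223) and Fas (0.21, adjusted p = 0.0148) as higher in CiLC than in LC. Under quantile normalization, where the median shift was 0.034, limma also called Tgfbr3 (0.34, adjusted p = 0.000701) and Klf9 (0.14, adjusted p = 0.0237) as higher in CiLC.

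At the other end stood genes close to MEF in CiLC and far from it in LC. The homeobox gene Irx1 was at 74.9 and 83.2 CPM in MEF, 51.2 and 50.7 in CiLC and 0.0580 and 0.0589 in LC, 2 reads in LC. Irx2, a relative, was at 54.4 and 53.4 CPM in MEF, 42.1 and 44 in CiLC and 0.0580 and 0 in LC. Ptn, the growth factor pleiotrophin, was at 667 and 667 CPM in MEF, 353 and 366 in CiLC and 0.232 and 0.530 in LC. The cadherin gene Cdh8 and Ebf2, a factor of mesenchyme, had 0 reads in LC. CiLC was 1.55-fold lower than MEF in Irx1, 1.25-fold in Irx2, 1.85-fold in Ptn, 1.97-fold in Cdh8 and 1.33-fold in Ebf2, of which Ebf2 was not called (edgeR adjusted p = 0.0508). On the higher side Col4a4, a basement membrane collagen, was at 1.21 and 1.93 CPM in MEF, 9.57 and 10.7 in CiLC and 661 and 706 in LC, with 30.4% of the LC difference in CiLC.

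Genes that went further in CiLC were fewer. Mme, a membrane protease, was at 18.1 and 16.2 CPM in MEF, 177 and 174 in CiLC and 19.1 and 21.8 in LC. Col23a1, a membrane collagen, was at 6.03 and 6.04 CPM in MEF, 75.4 and 79.3 in CiLC and 10.7 and 8.95 in LC. LC lay close to MEF in both, and CiLC was 8.57-fold higher than LC in Mme (edgeR adjusted p = 1.00e-21) and 7.87-fold higher in Col23a1 (edgeR adjusted p = 7.66e-20). Acp5, the acid phosphatase of osteoclasts and macrophages, was at 4.98 and 5.73 CPM in MEF, 53.5 and 52.5 in CiLC and 10.3 and 10.8 in LC. On the lower side Map3k7cl, a kinase-like gene, was at 8.60 and 8.02 CPM in MEF, 0.356 and 0.0507 in CiLC and 4.29 and 4.24 in LC. Ptprb, a phosphatase of vessels, was at 6.08 and 5.78 CPM in MEF, 0.0509 and 0.203 in CiLC and 2.44 and 2.83 in LC. CiLC held few reads of either gene.

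Among kept genes called in both CiLC and LC, with at least 5 CPM in both MEF libraries, the 10 farthest below MEF, by the smaller of the fold changes in CiLC and LC, were Col2a1, Rgs5, Hs3st5, Ano5, Cst7, Col10a1, Slc5a7, Slc4a10, Fcrls and Col8a1, several of them given above. Hs3st5, a heparan sulfate transferase, was at 9.17 and 6.82 CPM in MEF, 0.102 and 0.152 in CiLC and 0 and 0 in LC. Ano5, a membrane protein of muscle and bone, was at 20.3 and 16.3 CPM in MEF, 0.560 and 0.304 in CiLC and 0.116 and 0.0589 in LC. The calls between CiLC and LC of both were lost when some libraries were left out, Hs3st5 without CiLC replicate 2 or either LC library and Ano5 without CiLC replicate 1 or either LC library. Slc5a7, the choline transporter of nerve endings, was at 63.2 and 58.6 CPM in MEF, 2.44 and 2.18 in CiLC and 0 and 0 in LC, so that MEF was at least 695-fold and CiLC at least 26.4-fold above LC. Slc4a10, a bicarbonate transporter, was at 13.8 and 12.8 CPM in MEF, 0.763 and 0.456 in CiLC and 0 and 0 in LC, so that MEF was at least 152-fold and CiLC at least 6.96-fold above LC.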

How the data were processed

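The authors deposited 1 table of estimated counts of reads per gene for each of the 6 libraries, in which 32.4 to 32.8% of values are not whole numbers. Per the submitters' processing notes, reads had been aligned with HISAT to build mm9. For versions, the counting tool, strand use and annotation, the sources used here give nothing. NCBI gene identifiers were matched to symbols for 18179 of 18305 genes, and the other 126 held 0.164 to 0.259% of reads.

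Estimated counts were rounded and tested with edgeR 4.0.16 (R 4.3.3) by the quasi-likelihood test, two-sided, over all 6 libraries with group as the only term, TMM scaling and Benjamini-Hochberg adjustment at 0.05. The filter (at least 10 reads in enough libraries and 15 in total) left 14581 genes and removed 3724. A prior count of 2 was used for log2 CPM and of 0.125 for fold changes. Where a group held 0 reads, folds are bounds, from 3 reads summed over the group, and ratios with 1 to 3 reads carry exact 95% binomial intervals, all of which cover counting error only. With 18.4 to 18.9 M reads, 1 read is worth about 0.05 CPM.

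The members and gene lists were chosen with earlier results of these data known. Genes were named by rule: the markers Nr5a1, Gata4, Star, Prlr, Rgs5 and Col2a1, the 10 called in both cultures with the largest smaller difference in each direction, up to 4 for each list, the 5 most short of LC, the 5 most beyond and the 5 nearest in each direction, and those at the edge of the rule. Apart from markers and list members, at least 5 CPM was required, in every library of the higher side or, at the edge, on average. Libraries of a group differed by more than counting noise, with a chi-square per degree of freedom of 1.80 for CiLC, 2.94 for LC and 2.77 for MEF. Alternatives were other filters, scalings with DESeq2 1.42.0 and limma 3.58.1, a replicate block, a larger assumed spread, other prior counts and each library left out. Values of a few list members are not reported here.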

Additional observations from a re-analysis of the deposited data

How the results depend on the processing

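Of the 6350 kept genes, 5323 stayed in the rule with the same direction under total counts and 5834 under quantile normalization, and none turned under any alternative run. The 1424 short, 243 beyond and 304 not called between CiLC and LC became 732, 80 and 1159 with an assumed coefficient of variation of 0.4, which also left 774 genes called higher and 712 lower in the shared contrast. With a limit of 2 on the log2 scale in place of 1, which keeps fewer genes, they became 629, 107 and 99. Genes not called numbered 757 with no filter and 61 with a mean of at least 5 CPM, since the filters test more or fewer low genes. The median completeness was 54.6% with no filter, 42.6% at 5 CPM, 48.1% with DESeq2, 46.4% under total counts and 49.4% under quantile normalization, and the cause was not tested for the last 3.

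Leaving out each library gave 1345 to 1550 short, 229 to 274 beyond and 403 to 488 not called, 3956 to 4399 called higher and 3988 to 4360 lower, 3320 to 3879 with MEF lowest and 3484 to 3999 with MEF highest, and a median completeness of 46.5 to 49.4%. Counts kept by the rule, lists included, rise largely by construction here. With a library left out the rule sets fewer conditions, and 14863 to 14906 genes were tested. A replicate block gave 1417 short, 243 beyond and 311 not called. Same-numbered libraries did not deviate together (r from -0.0431 to 0.0722 over 11391 genes), so they share only a number.

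Some log2 differences close to 0 changed sign, and for total counts the shift of all genes by 0.215 is the construction. Between CiLC and LC, Pdlim1 was 0.0041 and Fas 0.0043 with no filter, and Slc1a2 was -0.0035 and Gdpd5 -0.0010 with DESeq2. Under total counts Acod1 was 0.21, Npy1r 0.16, Rbp4 0.15, Pdlim1 0.21, Mgp 0.20, Dnajc8 0.20, Cox7a2 0.13 and Fas 0.21. Under quantile normalization Acod1 was 0.080, Dnajc8 0.059 and Fas 0.020. In the shared contrast Oga was -0.0013 under total counts and -0.013 under quantile normalization. With 1 library left out the ranges were -0.019 to 0.070 for Tgfbr3, -0.15 to 0.029 for Rbp4, -0.081 to 0.085 for Pdlim1, -0.088 to 0.061 for Dnajc8, -0.057 to 0.063 for Fas, -0.067 to 0.051 for Acod1, -0.0051 to 0.047 for Klf9, -0.15 to 0.053 for Npy1r, -0.072 to 0.095 for Gdpd5, -0.073 to 0.10 for P2ry13, -0.97 to 0.10 for Tnnt3, -0.31 to 0.41 for Slc1a2, -0.043 to 0.015 for Mgp and -0.19 to 0.63 for Sox10. Outside these, 80 of the named genes' values against LC over all alternatives lost their call and 17 gained one, and in the shared contrast 33 lost theirs and 1 gained one. Genes under about 1 CPM rest on a few reads, and their distances are limited by depth.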
